A study of Apera spica-venti with 7 samples.

Results

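Leaf was set against elongating stem in *Apera spica-venti*, loose silky bentgrass, a grass weed of cereal fields, through the proteins named in the transcriptome assembly of each organ. Every translated transcript with a best plant homologue at an e-value of at most 0.1 was taken, which gave 28412 transcripts of 32001 in leaf and 29223 of 33244 in stem, or 57635 of the 251792 such transcripts in the 7 single assemblies of leaf, stem, root and 4 stages of germinated seed. Leaf and stem were harvested at BBCH stage 34 to 36, the stage of stem elongation, from greenhouse plants grown from mixed seed of herbicide susceptible populations, and the RNA of several individuals was pooled into 1 library for each organ. The roots came from plants of the same stage, and the seeds, at BBCH stages 05, 07, 08 and 09, were germinated in petri dishes.

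A leaf blade of a grass is mostly mesophyll, whose chloroplasts carry the photosystems, the light-harvesting proteins that bind chlorophyll, and the enzymes that fix carbon. A grass stem elongates from meristems at the base of each internode, where cells copy their DNA, divide and expand, and it later lays down cellulose and lignin in thick walls. Both organs are covered by an epidermis with a wax cuticle, and a young stem is itself green.

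The unit throughout is the transcript, 1 assembled and translated sequence with its best homologue, and the measure is the share of all annotated transcripts of the organ. Since the authors evened out read depth and merged like sequences before annotation, such a share says how many different sequences of a kind were assembled, not how strongly a gene was expressed. Ratios are leaf over stem, with 0.5 added to both counts, and their 95% intervals hold counting error only. Whole organs were sampled, so a cell type that was more frequent and one that held more different transcripts cannot be told apart. The methods of the study mention a further leaf library, and whether its reads entered the leaf table is not stated. With 1 table for each organ there was no replicate check and no test between organs, and differences between plants, harvests and assemblies cannot be told apart from differences between leaf and stem. By the paper's check against single-copy plant genes, the leaf assembly was less complete than that of stem, with more genes fragmented and more missing. The part of this in lower leaf counts and shorter leaf peptides was not tested.

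The leaf assembly was annotated somewhat more often and had shorter peptides. GO names were present on 76.6% of annotated leaf transcripts (95% interval 76.1 to 77.1) and on 74.2% of those of stem (73.6 to 74.6), against 73.5% to 75% in root and seeds. Enzyme codes were present on 14.7% in leaf and 13.5% in stem. A description that states a function, called informative here, was present on 23.3% in leaf and 21.8% in stem. Gene lists, made from words in such descriptions, could count these transcripts only, so their ratios and intervals include this higher share in leaf. The 28412 leaf transcripts matched 21719 different proteins and the 29223 stem transcripts matched 23704, so that a protein was matched repeatedly more often in leaf. The species matched were alike, with *Aegilops tauschii* first at 14.5% in leaf and 14.3% in stem, followed by wheat at 13.1% in leaf and 13.5% in stem.

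The photosynthetic machinery had more transcripts in leaf. The list of light reaction proteins held 56 transcripts in leaf, a share of 0.197% (95% interval 0.152 to 0.256), and 30 in stem, a share of 0.103% (0.0719 to 0.147), a ratio of 1.91 (1.21 to 3.10). Counted by distinct protein there were 23 in leaf and 21 in stem, a ratio of 1.19. Stem lay within the range of root and seeds for this list, 0.0916% to 0.110%, and leaf lay above it. Of its 19 descriptions, 11 were present in both organs, 5 in leaf and not in stem, and 3 in stem and not in leaf.

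Chlorophyll a-b binding proteins, which hold the pigments of the light-harvesting antennae, were its most numerous members. Under the description for the chloroplast forms there were 27 transcripts in leaf and 13 in stem, a ratio of 2.1 (1.06 to 4.51), against 17 in root and 14, 21, 13 and 15 in the seed stages 05, 07, 08 and 09. The leaf count was thus higher than that of every other assembly, each of which annotated more transcripts in all than leaf did. Those 27 and 13 transcripts came from 5 proteins in leaf and 5 in stem. A single protein of *Triticum urartu*, M7YJZ8, was matched by 12 transcripts in leaf and 3 in stem, while a second one of *Ae. tauschii*, M8ARM8, was matched by 3 in leaf and 4 in stem. Under this description leaf therefore did not have more proteins than stem. Its higher count came mostly from M7YJZ8, and not every protein had more transcripts in leaf.

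The photosystem subunits, the reaction centres that use this light, had 18 transcripts in leaf and 9 in stem, with 16 in root and 11 to 14 in the seed stages. Photosystem II D2 had 4 transcripts in leaf and 2 in stem, and the photosystem I apoprotein A2 likewise 4 in leaf and 2 in stem. Ferredoxin-NADP reductase, which makes NADPH at the end of the electron chain, had 5 in leaf and 2 in stem, with an interval of the ratio from 0.421 to 27.0. For single proteins of this kind a difference was not detectable at these counts.

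Carbon fixation enzymes numbered 52 transcripts in leaf and 32 in stem, a ratio of 1.66 (1.06 to 2.68), and leaf was above the 0.103% to 0.134% of root and seeds at 0.183%. Carbonic anhydrase, which interconverts carbon dioxide and bicarbonate, stood out with 9 transcripts in leaf and 1 in stem, a ratio of 6.51 (1.28 to 406), against 3 in root and 3, 4, 5 and 7 in the seed stages. Of the 9 in leaf, 6 matched 1 wheat protein, W5I2I1, that no stem transcript matched. Phosphoribulokinase, which regenerates the carbon dioxide acceptor, had 4 in leaf and 1 in stem, and fructose-bisphosphate aldolase, shared with glycolysis, had 16 in leaf and 9 in stem. Rubisco was close by this measure. Its small chain had 4 transcripts in leaf and 3 in stem, and its large chain, encoded in the plastid, had 1 in leaf and 1 in stem, each of 478 amino acids.

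Other chloroplast lists were closer. Chlorophyll and carotenoid metabolism held 19 transcripts in leaf and 14 in stem (ratio 1.38, 0.664 to 3.01), photorespiration 9 in leaf and 10 in stem (0.93, 0.333 to 2.53), and chloroplast gene expression and import 49 in leaf and 54 in stem (0.93, 0.621 to 1.40). The last list holds chloroplast ribosomal proteins and pentatricopeptide repeat proteins, which bind and process organelle RNA. The 50S proteins had 10 in leaf and 9 in stem, while pentatricopeptide repeat proteins had 10 in leaf and 20 in stem, a ratio of 0.53 (0.215 to 1.15).

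**Figure D1:**
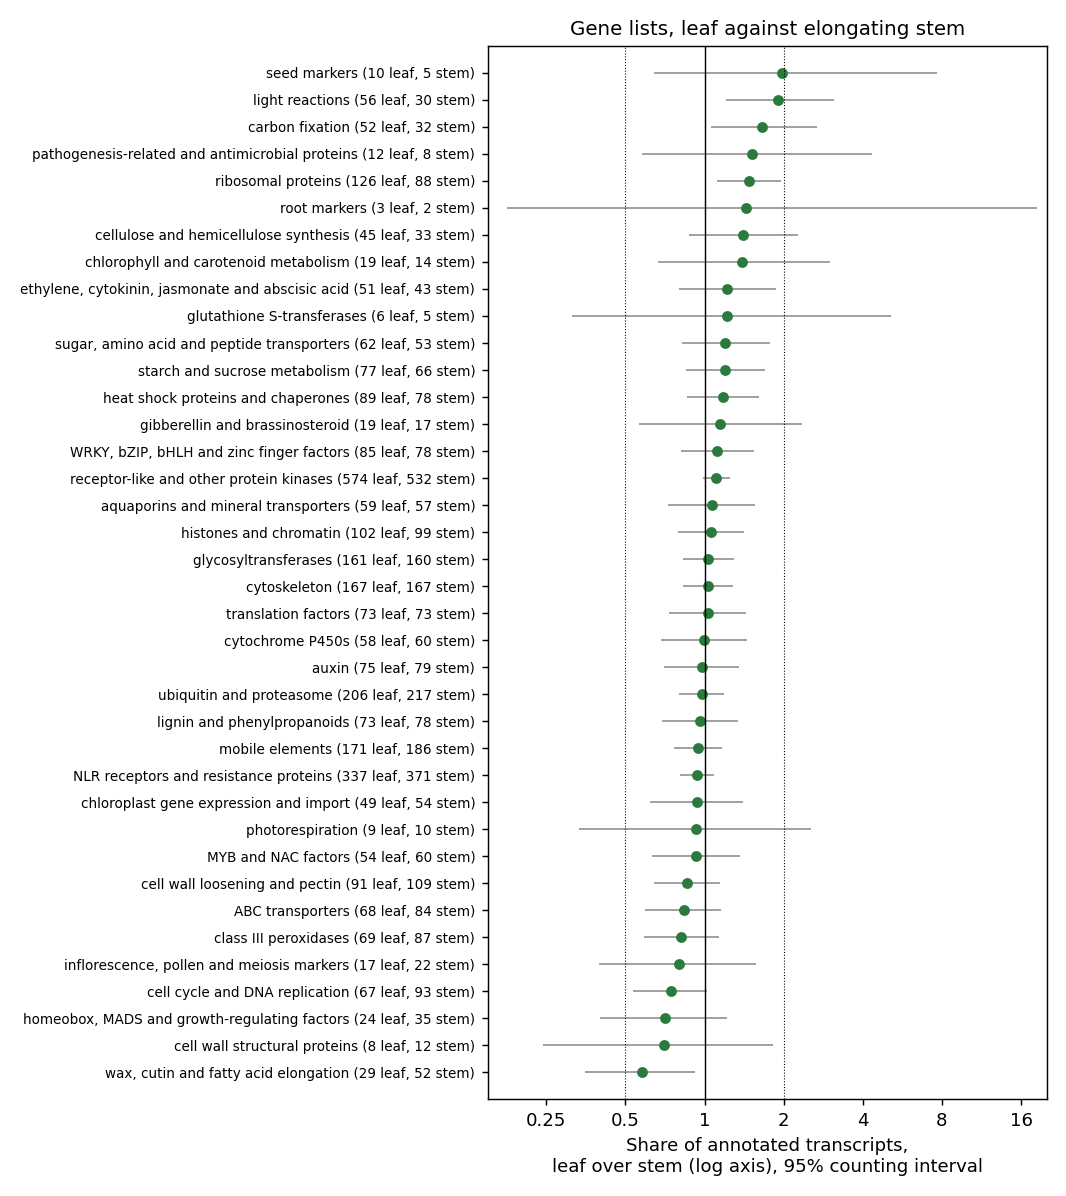
Ratio of the share of annotated transcripts, leaf over stem, on a log axis for the 38 gene lists, with the number of transcripts in leaf and in stem beside each name. Points are ratios, bars are 95% counting intervals, and dotted lines mark a ratio of 0.5 and of 2. The light reaction, carbon fixation and ribosomal protein lists have intervals above 1, and the list of wax, cutin and fatty acid elongation has one below 1.

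GO names gave a wider base, since they also cover transcripts without an informative description. Of 3967 GO names found in either organ, 881 were on at least 20 transcripts over both, and their ratios had a median of 1.11, with the 5th percentile at 0.70 and the 95th at 1.73. Leaf carried 3.99 GO names per transcript with GO and stem 3.88, and a ratio near 1.11 is the level of the table as a whole. A share at least 2-fold higher in leaf was found for 7 of the 881 names (0.795%) and one at least 2-fold lower in leaf for another 7 (0.795%).

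Among the 7 names higher in leaf, thylakoid lumen, the space inside the photosynthetic membranes, had 33 transcripts of 24 proteins in leaf and 15 of 14 proteins in stem, a ratio of 2.22 (1.20 to 4.48). It was the 1 name of the 7 whose interval lay above 1. Signal recognition particle, which guides proteins to membranes, had 15 in leaf and 6 in stem, and all of these also carried 7S RNA binding, with 19 in leaf and 9 in stem. Its named members included the chloroplast 54 kDa subunit, with 2 in leaf and 1 in stem. Response to iron ion had 14 in leaf and 6 in stem, of which aconitase, an iron-sulphur enzyme, made up 6 in leaf and 2 in stem.

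The remaining 3 names came from 9 to 13 proteins in leaf and 6 to 8 in stem. Ribonucleoside binding had 20 transcripts in leaf and 9 in stem, nearly all named DNA-directed RNA polymerase, whose peptides under this name had a median of 163.5 amino acids in leaf and 845 in stem. Guanosine tetraphosphate metabolic process, the making and breaking of a signal nucleotide of plastids and bacteria, had 19 in leaf and 9 in stem, and 8 of the 19 matched 1 protein. Glycerophosphodiester phosphodiesterase activity had 18 in leaf and 9 in stem. All 7 names had more transcripts per protein in leaf than in stem, as did 655 of the 881, and when distinct proteins were counted in place of transcripts 0 of the 7 reached 2-fold. Just outside the threshold were divalent metal ion transport, 16 in leaf and 8 in stem, and photosystem I, 45 in leaf and 24 in stem.

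As a group, the GO names of photosynthesis and the chloroplast lay above the table as a whole. These names were picked out after the values were seen and share many transcripts, so their number is a description. Of 28 such names, 27 had a ratio over 1, against 614 of all 881, with a median of 1.5 against 1.11 for all 881. Counted by distinct protein the median was 1.28 against 1.09. In 27 of the 28 leaf was above each of the 5 assemblies of root and seeds, which compares with 429 of all 881 names. Photosystem II had 67 transcripts in leaf and 37 in stem (1.85, 1.23 to 2.86), photosystem II assembly 99 in leaf and 56 in stem (1.81, 1.30 to 2.57), and chloroplast stroma 256 in leaf and 192 in stem (1.37, 1.13 to 1.66). Light harvesting had 52 in leaf and 28 in stem, yet 21 proteins in leaf and 19 in stem. The lowest of the 28 was chloroplast inner membrane, with 14 in leaf and 16 in stem.

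**Figure D2:**
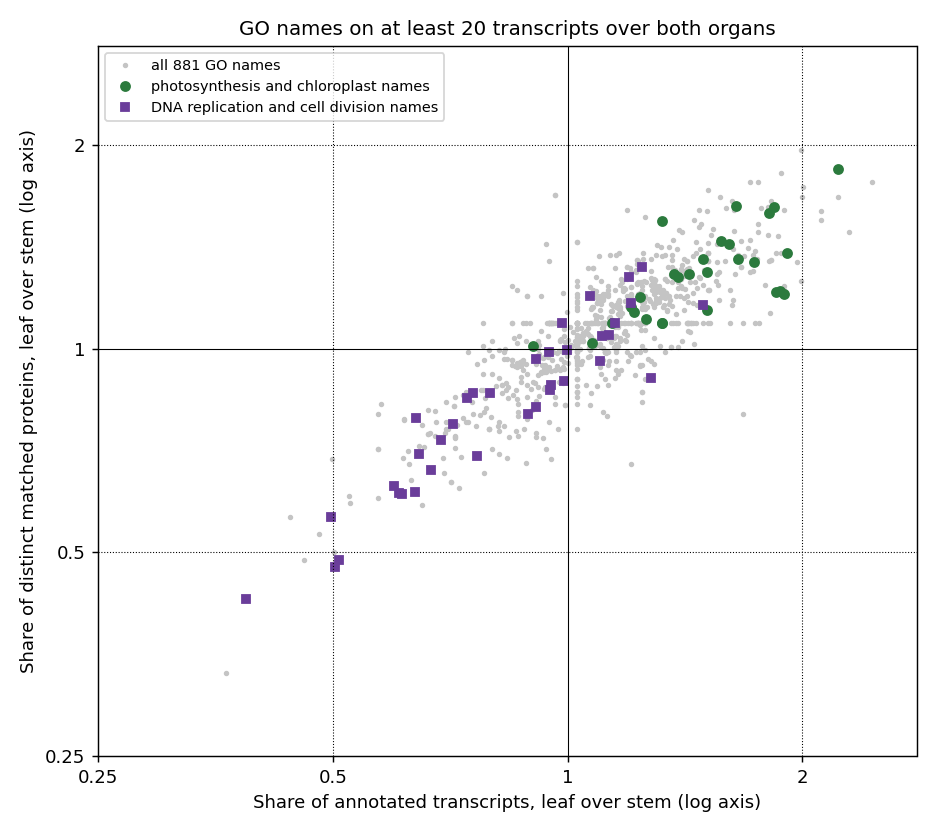
Each point is 1 of the 881 GO names on at least 20 transcripts, placed by the ratio leaf over stem of transcripts (horizontal, log axis) and of distinct matched proteins (vertical, log axis). The names of photosynthesis and the chloroplast (circles) reach 2.22 by transcripts and lie over 1 by proteins, and those of DNA replication and cell division (squares) reach down to 0.39 by transcripts.

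DNA replication and the cell cycle ran the other way, with fewer transcripts in leaf. The list of cell cycle and DNA replication proteins held 67 transcripts in leaf, a share of 0.236% (0.186 to 0.299), and 93 in stem, a share of 0.318% (0.260 to 0.390), a ratio of 0.74 (0.533 to 1.03). Root and seeds lay between 0.287% and 0.315%, so that leaf was below all of them and stem above all of them. By distinct protein the ratio was 0.80.

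DNA replication initiation, the loading of helicases at origins, was among the 7 GO names lower in leaf, with 14 transcripts in leaf and 38 in stem, a ratio of 0.39 (0.190 to 0.715). Root had 51, and the seed stages had 36, 50, 48 and 46, so the stem share fell in their range and the leaf share under it. These were 13 different proteins in leaf and 34 in stem, with median peptides of 213 amino acids in leaf and 577.5 in stem. Named among them was DNA helicase, which unwinds the strands, with 1 in leaf and 6 in stem. The part of the longer stem peptides in this difference was not tested.

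Nuclear division was also lower, with 7 transcripts in leaf and 15 in stem, and its ratio of 0.498 lay just inside the threshold. Regulation of the G2/M transition, with 11 in leaf and 23 in stem (0.503), and cell proliferation, with 23 in leaf and 47 in stem (0.51, 0.292 to 0.846), lay just outside it. DNA replication had 55 in leaf and 85 in stem (0.67, 0.465 to 0.945), histone H3-K9 methylation 38 in leaf and 64 in stem (0.61, 0.398 to 0.926), and cytokinesis by cell plate formation 37 in leaf and 60 in stem (0.64, 0.409 to 0.971). Not every name of this kind was lower. Mitotic cell cycle had 66 in leaf and 60 in stem, and cell division had 56 in leaf and 50 in stem.

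Over 36 GO names of DNA replication and cell division, again picked out after the values were seen, 26 had a ratio under 1, against 267 of all 881, and the median was 0.90 against 1.11 for all names. Leaf was below each of the 5 other assemblies in 15 of them, against 119 of all 881, and stem was above each of them in 9, against 212 of all 881. Among replication names on few transcripts, some were in stem with none in leaf. Okazaki fragment processing, the joining of the lagging strand, was on 0 transcripts in leaf and 5 in stem, and DNA replication origin binding was on 0 in leaf and 4 in stem. The intervals of these ratios reached up to 1.12 and 1.56, so a difference was not detectable at these counts. Names of other kinds were also absent from leaf. Cytidine to uridine editing was on 0 in leaf and 7 in stem, with an interval up to 0.714. Mitochondrial mRNA modification was on 0 in leaf and 6 in stem, with an interval up to 0.874. The other way, response to oxygen-containing compound was on 4 in leaf and 0 in stem.

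Several protein families of DNA replication and the cell cycle had the same direction in small numbers. Like the other families below, they were put together from their name variants after the counts were seen. DNA topoisomerases, which relieve the twist of replicating DNA, had 7 transcripts in leaf and 18 in stem (0.42, 0.141 to 1.00), against 17 in root and 18 to 24 in the seed stages. Topoisomerase 6 subunit A, which in plants acts in endoreduplication, had 1 in leaf and 5 in stem. The cyclins A, B and D, which drive the phases of the cell cycle, had 2 in leaf and 9 in stem, with 8 to 11 in root and seeds, and cyclin-dependent kinases had 4 in leaf and 8 in stem. DNA helicases had 2 transcripts of 1 protein in leaf and 8 of 6 proteins in stem. The intervals of these ratios reached 1 or above. DNA polymerase itself had 11 in leaf and 11 in stem.

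Cytosine DNA methyltransferases, which methylate DNA and keep that mark through replication, had the same direction. The description cytosine-specific methyltransferase was on 0 transcripts in leaf and 12 in stem, at least 3.89-fold lower in leaf with a floor of 3 counts in place of the 0 and with an interval of the ratio up to 0.370, against 14 in root and 8, 8, 8 and 13 in the seed stages. It was the 1 informative description with at least 5 transcripts in stem and 0 in leaf. Of the 12, 7 matched 1 protein of *Brachypodium distachyon*, I1I330, and the longest had 1016 amino acids. Under other names of these enzymes there were 5 transcripts in leaf and 4 in stem, for instance DNA (cytosine-5)-methyltransferase 1 with 3 in leaf and 4 in stem, so that the whole family had 5 in leaf and 16 in stem. The enzyme code EC 2.1.1.37 and the GO name for this activity were on 0 transcripts in leaf and 8 in stem, although 5 leaf transcripts had a name of this family.

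Histones and chromatin proteins as a list were close, with 102 transcripts in leaf and 99 in stem (1.06, 0.796 to 1.41). Histone H2A had 9 in leaf and 13 in stem, and histone-lysine N-methyltransferases had 22 in leaf and 19 in stem.

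**Figure D3:**
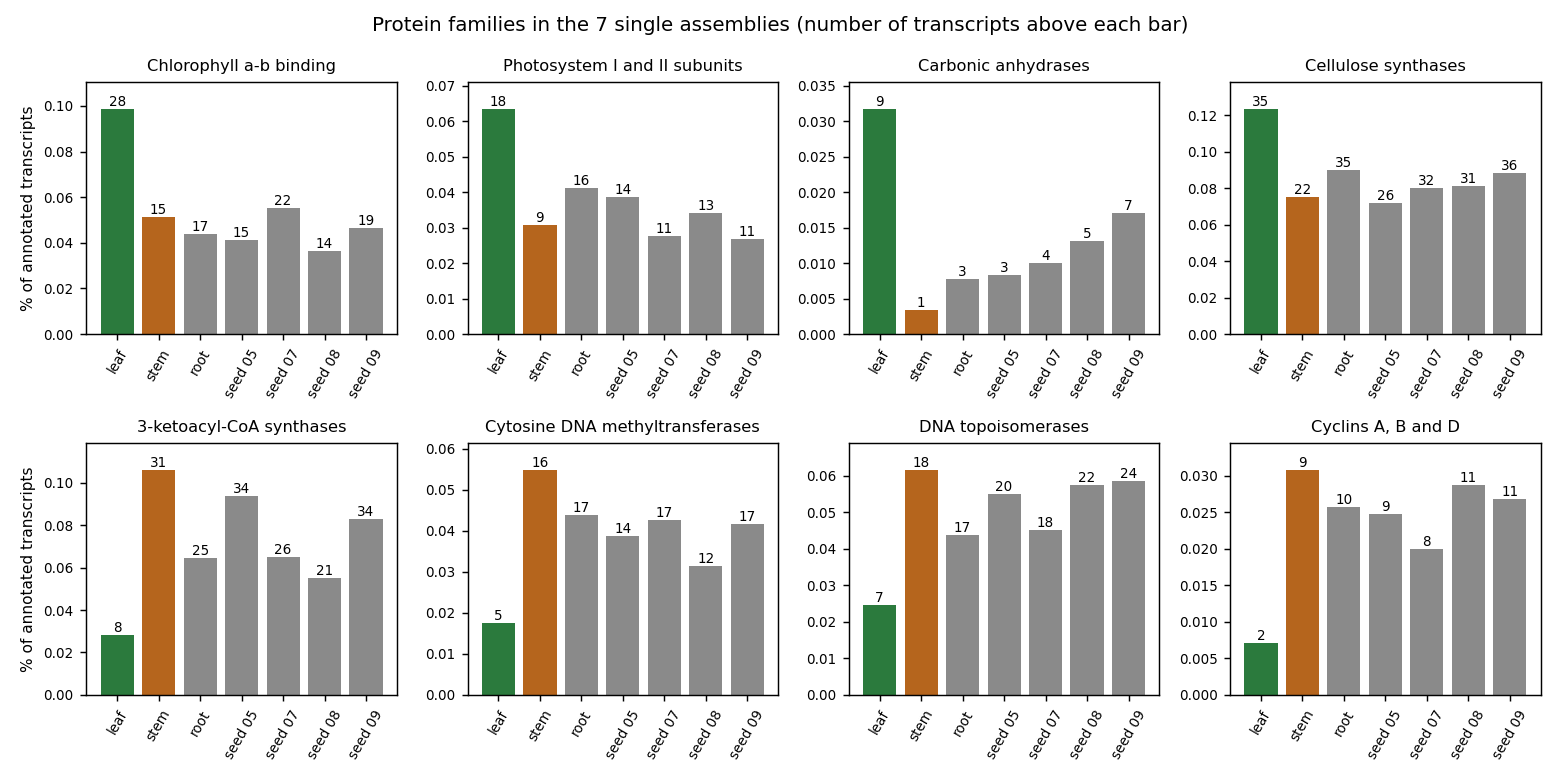
Share of annotated transcripts (percent, bars from 0) for 8 protein families in leaf, stem, root and 4 seed stages, with the number of transcripts above each bar and 1 library for each. Leaf is the highest bar for chlorophyll a-b binding proteins, photosystem subunits, carbonic anhydrases and cellulose synthases, and the lowest for 3-ketoacyl-CoA synthases, cytosine DNA methyltransferases, DNA topoisomerases and cyclins.

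Wax, cutin and fatty acid elongation gave the lowest ratio of the 38 lists. It had 29 transcripts of 20 proteins in leaf and 52 of 44 proteins in stem, a ratio of 0.58 (0.351 to 0.920). Leaf at 0.102% was below root and seeds at 0.128% to 0.171%, and stem at 0.178% was above them. The 3-ketoacyl-CoA synthases, which add the carbon units to very long fatty acids for waxes and suberin, were the largest family of the list. Under their general description, which the tables shorten, there were 8 transcripts in leaf and 25 in stem, a ratio of 0.34 (0.128 to 0.753), with 21 in root and 25, 23, 18 and 29 in the seed stages. It was 1 of 3 informative descriptions of the 77 tested (3.9%) at least 2-fold lower in leaf. With the numbered forms the family came to 8 in leaf and 31 in stem, 7 proteins in leaf and 24 in stem. The leaf peptides of this family were the longer ones, with a median of 450.5 amino acids in leaf and 214 in stem. Other members of the list went both ways. GDSL esterase lipases had 6 in leaf and 7 in stem, and non-specific lipid-transfer proteins 6 in leaf and 3 in stem. WAX2, an enzyme of cuticle wax, had 1 in leaf and 3 in stem. The low ratio of the list thus rested largely on the 3-ketoacyl-CoA synthases.

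The intervals of the cell wall lists included 1. Cell wall loosening and pectin had 91 transcripts of 69 proteins in leaf and 109 of 98 proteins in stem (0.86, 0.643 to 1.14). Within it are pectinesterases, which trim methyl groups from pectin, and the GO name for their activity was 1 of the 7 lower in leaf, with 10 transcripts in leaf and 22 in stem (0.48, 0.198 to 1.03) and 27 in root. The enzyme code EC 3.1.1.11 for the same activity lay just outside the threshold, with 10 in leaf and 21 in stem. Xyloglucan endotransglucosylases, which cut and rejoin wall polymers in growth, had 17 in leaf and 20 in stem, beta-galactosidases 11 in leaf and 17 in stem, and expansins 2 in leaf and 4 in stem. Pectinesterase inhibitor activity was on 0 transcripts in leaf and 4 in stem.

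Cellulose and hemicellulose synthesis had 45 transcripts in leaf and 33 in stem, and its interval included 1. Cellulose synthases, which spin the cellulose microfibrils, made up most of it, with 35 transcripts in leaf and 22 in stem (1.62, 0.933 to 2.93) and 26 to 36 in root and seeds. They matched 15 proteins in leaf and 11 in stem. Lignin and phenylpropanoids were close, with 73 in leaf and 78 in stem (0.96, 0.690 to 1.34). Phenylalanine ammonia-lyase, the entry step, had 14 in leaf and 17 in stem, laccases, which polymerise lignin, 10 in leaf and 11 in stem, and cinnamyl alcohol dehydrogenases 10 in leaf and 6 in stem. Class III peroxidases had 69 transcripts of 48 proteins in leaf and 87 of 77 proteins in stem (0.82, 0.586 to 1.13), and both organs were below root and seeds, at 0.351% to 0.523%. Wall structural proteins were few, 8 in leaf and 12 in stem, of which fasciclin and arabinogalactan proteins had 1 in leaf and 7 in stem. Of the 7 marker families set for an elongating stem, 5 had a ratio under 1, namely these arabinogalactan proteins, expansins, laccases, xyloglucan endotransglucosylases and caffeic acid O-methyltransferases, and 2 had a ratio over 1, cellulose synthases and cinnamyl alcohol dehydrogenases. The interval of each of the 7 included 1, so at these counts the markers could not set stem apart from leaf.

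The cytoskeleton list had the same number of transcripts in both organs, 167 in leaf and 167 in stem, but not the same length. Its peptides had a median of 162 amino acids in leaf and 359 in stem and a sum of 42677 in leaf and 82202 in stem. Kinesins, motors of the spindle and of the dividing wall, had 69 transcripts of 47 proteins in leaf and 75 of 62 proteins in stem, with medians of 168 amino acids in leaf and 611 in stem. Formins, which nucleate actin, had 27 in leaf and 36 in stem. Among peptides of at least 200 amino acids the ratio of the list was 0.66, and by summed amino acids, a measure chosen after seeing the data, it was 0.62.

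The intervals of the hormone and transcription factor lists included 1. Auxin proteins had 75 transcripts in leaf and 79 in stem (0.98, 0.702 to 1.36), with auxin response factors at 26 in leaf and 37 in stem and auxin-responsive proteins at 32 in leaf and 29 in stem. The GO name regulation of cellular process, 1 of the 7 lower in leaf with 10 in leaf and 23 in stem, held 3 auxin-responsive proteins in leaf and 9 in stem. Gibberellin and brassinosteroid, hormones of stem growth, had 19 in leaf and 17 in stem, and ethylene, cytokinin, jasmonate and abscisic acid had 51 in leaf and 43 in stem. Homeobox, MADS and growth-regulating factors had 24 in leaf and 35 in stem (0.71, 0.401 to 1.22), each of the 24 in leaf a different protein. MYB and NAC factors had 54 in leaf and 60 in stem, and WRKY, bZIP, bHLH and zinc finger factors had 85 in leaf and 78 in stem.

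Receptors and defence proteins were numerous and alike in total. Protein kinases had 574 transcripts in leaf and 532 in stem (1.11, 0.985 to 1.25). Within them, LRR receptor-like kinases had 72 in leaf and 53 in stem, and plain serine/threonine kinases had 55 in leaf and 75 in stem. Cysteine-rich receptor kinase 25 was the description with the highest ratio, 17 in leaf and 6 in stem (2.77, 1.10 to 9.03), 1 of 2 informative descriptions of the 77 tested (2.6%) at least 2-fold higher in leaf, the other being the chlorophyll a-b binding proteins. Of its 17 leaf transcripts, 8 matched 1 protein of *Ae. tauschii* that had none in stem, and cysteine-rich receptor kinases under all names had 76 in leaf and 75 in stem. NLR receptors and resistance proteins had 337 in leaf and 371 in stem (0.93, 0.804 to 1.09), and pathogenesis-related and antimicrobial proteins 12 in leaf and 8 in stem.

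The intervals of the transport and detoxification lists included 1. Aquaporins and mineral transporters had 59 transcripts in leaf and 57 in stem, sugar, amino acid and peptide transporters 62 in leaf and 53 in stem, and ABC transporters 68 in leaf and 84 in stem (0.83, 0.596 to 1.16). Cytochrome P450s had 58 in leaf and 60 in stem. Among their members P450 99A2 had 8 in leaf and 3 in stem and P450 89A2 had 2 in leaf and 8 in stem. Glycosyltransferases had 161 in leaf and 160 in stem and glutathione S-transferases 6 in leaf and 5 in stem. Flavin-containing monooxygenases, which in plants oxidise nitrogen and sulphur in small molecules, had 8 transcripts in leaf and 17 in stem (0.500, 0.181 to 1.18) against 27 to 30 in root and seeds. Their enzyme code, EC 1.14.13.8, was the 1 of 84 tested codes (1.19%) at least 2-fold lower in leaf, with 7 in leaf and 17 in stem, and EC 3.1.4.46, glycerophosphodiester phosphodiesterase, was the 1 (1.19%) at least 2-fold higher, with 15 in leaf and 7 in stem.

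In primary metabolism, starch and sucrose enzymes had 77 transcripts in leaf and 66 in stem (1.20, 0.852 to 1.69). Sucrose synthase, which splits sucrose in sink tissue, had 15 transcripts of 7 proteins in leaf and 6 of 5 proteins in stem under all names, with median peptides of 125 amino acids in leaf and 492.5 in stem, so the summed length was 3176 in leaf and 2968 in stem. Ribosomal proteins had 126 in leaf and 88 in stem (1.47, 1.11 to 1.96), with peptides of about equal length, 158.5 amino acids in leaf and 159.5 in stem. Leaf at 0.443% lay within the range of root and seeds, 0.306% to 0.711%, and stem at 0.301% lay just under it. The GO name ribosomal large subunit assembly pointed the other way, with 5 in leaf and 15 in stem (0.36, 0.0975 to 0.992), the lowest of the 881, and 2 of these in leaf and 6 in stem were midasin, an ATPase that matures the large subunit.

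Translation factors had 73 transcripts in leaf and 73 in stem, heat shock proteins and chaperones 89 in leaf and 78 in stem, and ubiquitin and proteasome proteins 206 in leaf and 217 in stem. In the last list E3 ubiquitin ligases had 14 in leaf and 27 in stem and tubby-like F-box proteins 19 in leaf and 10 in stem, both just outside the threshold. Speckle-type POZ proteins, adaptors of such ligases, were inside it, with 6 in leaf and 15 in stem (0.43, 0.131 to 1.12). Mobile elements had 171 in leaf and 186 in stem (0.95, 0.764 to 1.17). Intramolecular transferase activity, the last of the 7 GO names lower in leaf, had 8 in leaf and 17 in stem, among them terpene cyclases, which fold sterols and triterpenes, with 4 in leaf and 7 in stem. N,N-dimethylaniline monooxygenase activity, with 7 in leaf and 17 in stem, was that of the flavin-containing monooxygenases.

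Over all 38 lists the median ratio was 1.03, with a range from 0.58 for wax, cutin and fatty acid elongation to 1.96 for seed markers, and none reached 2-fold in either direction. Markers of other organs were mostly few. High-affinity nitrate transporter and nicotianamine synthase of roots, and oleosin, gliadin and hordein of seeds, had 0 transcripts in leaf and 0 in stem. These counts of 0 say little, since root itself had 1 of the transporter and 1 of the synthase. Gliadin or hordein had 1 in seed stage 05 and 1 in stage 09, and oleosin 3 in each seed stage and 2 in root. Casparian strip and CASP-like proteins had 18 in leaf, 22 in stem and 29 in root. Globulins had 4 in leaf, 3 in stem and 9 to 17 in the seed stages. The root marker list had 3 in leaf and 2 in stem, against 4 in root itself, so it did not set the organs apart. The seed marker list had 10 in leaf and 5 in stem, including late embryogenesis abundant proteins with 3 in leaf and 0 in stem, against 21 in root and 23 to 32 in the seed stages. Inflorescence, pollen and meiosis markers had 17 in leaf and 22 in stem, shares of 0.0598% in leaf and 0.0753% in stem against 0.0601% to 0.0773% in root and seeds, with MADS-box factors at 11 in leaf and 14 in stem. Of the mesophyll markers, chlorophyll a-b binding proteins, photosystem subunits and the rubisco small chain had their highest shares in leaf. The small chain had only 4 transcripts in leaf and 3 in stem, with an interval of the ratio from 0.232 to 9.36. The rubisco large chain did not peak in leaf, with 1 in leaf and 1 in stem against 2 in root and 2 in seed stage 08. These markers were present in stem, root and seeds as well. The exceptions were the small chain with 0 transcripts in seed stage 05 and the large chain with 0 in seed stage 09.

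Peptides were shorter in leaf than in stem. The median was 194 amino acids in leaf (quartiles 131 and 333) and 232 in stem (144 and 394), against 175 to 201 in root and seeds, so that stem was the assembly set apart. Peptides under 200 amino acids made up 51.5% in leaf and 42.4% in stem, those of at least 500 made up 10.9% in leaf and 15.4% in stem, and those of at least 1000 numbered 376 in leaf and 603 in stem. A best match at an e-value listed as 0, which long and close matches reach, was found for 22.8% in leaf and 28.5% in stem. By the paper's check leaf was also the less complete assembly, and the part of this in peptide length was not tested.

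**Figure D4:**
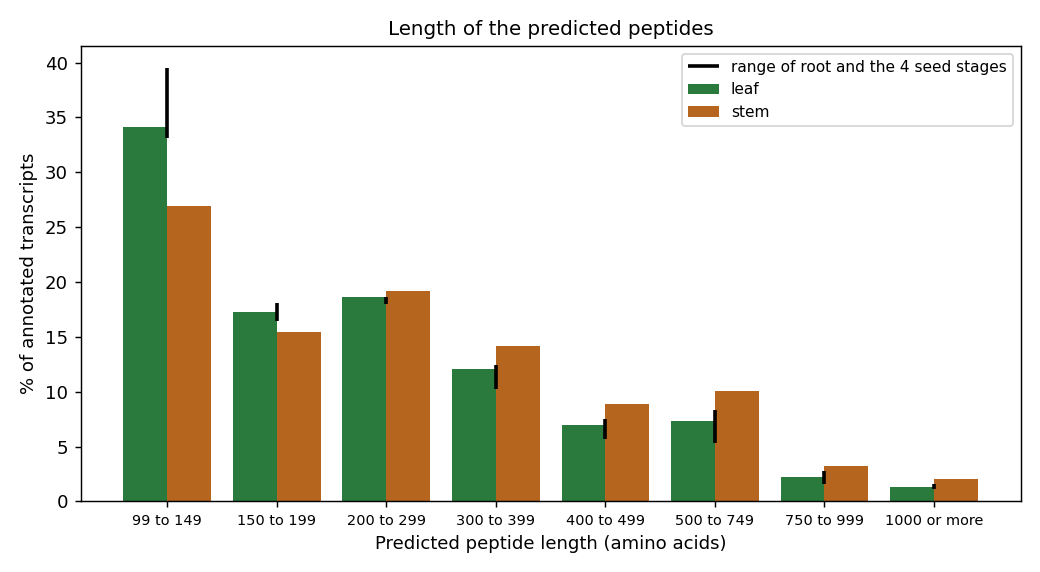
Share of annotated transcripts (percent, bars from 0) in 8 classes of peptide length in amino acids for leaf and stem, with a vertical line for the range over root and the 4 seed stages. Leaf has more peptides of 99 to 149 amino acids, 34.2% against 27.0% in stem, and stem has more in every class from 200 upward.

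The difference held for the same proteins. Of 14466 proteins matched in both organs, the longest peptide was longer in leaf for 4456 (30.8%), longer in stem for 7127 (49.3%) and equal for 2883 (19.9%). A difference of at least 2-fold was found in favour of leaf for 513 proteins and in favour of stem for 1650. Among the 9095 proteins with 1 transcript in each organ, 28.6% were longer in leaf and 45.7% in stem, so the difference was also present where each organ had a single transcript.

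Functional groups differed in how far they shared this. For the cytoskeleton, 15 of 75 shared proteins were longer in leaf and 49 in stem, with medians of 217 amino acids in leaf and 510 in stem. For cell wall loosening and pectin it was 9 of 41 in leaf and 28 in stem, and for cell cycle and DNA replication 7 of 34 in leaf and 20 in stem. Chlorophyll and carotenoid metabolism had 8 of 10 shared proteins longer in leaf and 2 in stem, mobile elements 33 of 57 in leaf and 15 in stem, light reactions 7 of 15 in leaf and 4 in stem, and ribosomal proteins 22 of 58 in leaf and 17 in stem. Other lists lay on both sides, as auxin had 22 of 44 longer in leaf and 15 in stem, cellulose and hemicellulose synthesis 6 of 12 in leaf and 6 in stem, and cytochrome P450s 6 of 26 in leaf and 16 in stem. These are counts over proteins of 1 assembly each, which are not replicates.

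**Figure D5:**
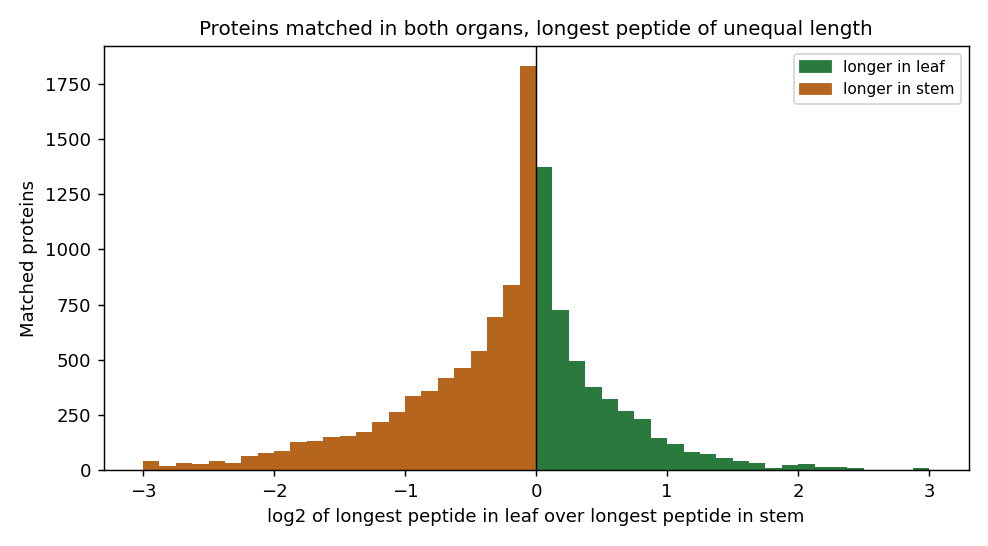
Number of proteins matched in both organs by the log2 of the longest peptide in leaf over the longest in stem, in bins of 0.125, with values beyond 3 in either direction set into the outermost bin. The 2883 proteins of equal length are left out, and the 7127 longer in stem reach further out than the 4456 longer in leaf.

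Proteins matched in 1 organ and not the other were many, mostly with 1 short transcript. In leaf 7253 of 21719 proteins (33.4%, 32.8 to 34.0) had no match in stem, and in stem 9238 of 23704 (39.0%, 38.4 to 39.6) had none in leaf. Their median peptide was 150 amino acids in leaf and 177 in stem, against 222 in leaf and 273 in stem for shared proteins. Of the proteins without a match in stem, 69.1% were matched in root or seeds, and of those without a match in leaf 82.3% were. Root alone matched 34.8% of the first group and 58.7% of the second. Proteins matched in stem and not in leaf were therefore more often matched in the other organs, and 2244 proteins were matched in leaf alone and 1638 in stem alone. The assembly of the merged reads of all libraries matched 53.5% of the proteins without a match in stem. It matched 66.3% of those without a match in leaf. A protein here is a best match, so a missing match does not show that its gene product was absent.

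Few named proteins carried more than a handful of such transcripts. In leaf 7 proteins had at least 5 with none in stem. They included cysteine-rich receptor kinase 25 (M8CVQ3) with 8, carbonic anhydrase W5I2I1 with 6 and phosphatidylinositol 4-kinase, an enzyme of membrane signalling, with 5. Phosphatidylinositol 4-kinase was also the 1 informative description with at least 5 in leaf and none in stem, with an interval of the ratio from 0.943 upward, and had 1 transcript in root and 1 in the seed stages together. In stem 13 proteins had at least 5 with none in leaf, among them the cytosine-specific methyltransferase I1I330 with 7, topoisomerase 6 subunit A (M8BY72) with 5, an ABC transporter C family member 14 (M8A788) with 5 and the resistance protein RGA1 (N1R332) with 5. All 4 were matched in root as well, and in every seed stage except for the ABC transporter, which had 0 in stage 05. Counted by informative description in place of protein, leaf and stem were alike, with 690 of 2743 (25.2%) only in leaf and 689 of 2742 (25.1%) only in stem.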

How the data were processed

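Pooled RNA of leaf and of stem gave 1 library each. The paper's methods mention a further leaf library, which was not analysed here as a sample of its own, and whether its reads entered the leaf table is not stated. The authors clipped reads with Trimmomatic (version not given in the sources used here, named in the submitters' processing notes) and evened out depth by k-mers. Trinity assembled them, and by the paper's methods the longest isoform of each gene was carried on. CD-HIT merged like contigs, and the longest open reading frame was translated. The annotated transcripts still numbered 1.10 per Trinity gene in leaf and 1.13 in stem, so the unit counted was not 1 sequence per gene. They searched UniProtKB plant proteins and set GO names and enzyme codes with Blast2GO. The deposited e-value is a score of the authors' search, mean similarity is a percent the authors deposited, and peptide length in amino acids was used as deposited. Read depth is not in these tables, and the number of transcripts limits precision. No column was without a sample (0 columns).

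Transcripts whose e-value did not exceed 0.1 were counted by GO name, enzyme code, informative description and 38 lists of words in descriptions, as shares of annotated transcripts with 95% Wilson intervals. Ratios have exact conditional intervals. Features on at least 20 transcripts over both organs were called at 2-fold. A count of 0 was bounded by 3 counts. The text names all lists with up to 6 of their most frequent descriptions, the most extreme features past the fold (8 GO names, 6 enzyme codes and 12 descriptions in each direction) and descriptions with at least 5 transcripts in 1 organ and 0 in the other. Families, GO groups, features just outside the threshold and single proteins were chosen after their values were seen. The comparison and the lists were chosen with earlier results of these data known, and list wordings that caught unrelated names were corrected after the descriptions were seen. Alternatives were the e-value limit, the unit counted, peptide length, the fold, the filter and the denominator, and summed amino acids, which was added after seeing the data. No sequence or coordinates are given, as no genome was used here. Counting used Python 3.11.15 with pandas 2.3.3, intervals used SciPy 1.17.1 and NumPy 2.4.6, and plots used matplotlib 3.10.9.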

Additional observations from a re-analysis of the deposited data

How the results depend on the processing

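No paired analysis was possible because each organ had 1 library, and no library could be left out. Of 304 list values under alternatives, 301 stayed within the interval of the main ratio and 273 stayed on the same side of 1. Many of these intervals were wide and the alternatives reused the same transcripts, so staying within them was a weak check. The fewest lists on the same side of 1 were found with peptides of at least 200 amino acids, 27 of 38. No list was past 2-fold to begin with. Light reactions fell to 1.19 by distinct accessions, and cytoskeleton to 0.66 with peptides of at least 200 amino acids and to 0.62 by summed amino acids. Counts of features past the fold depended on most settings, given here as higher and then lower in leaf. For GO names, 7 and 7, they were 0 and 3 by distinct accessions, 99 and 37 at 1.5-fold, 0 and 0 at 3-fold, 36 and 28 with at least 10 transcripts, 1 and 1 with at least 40, 325 and 397 with no filter, and 15 and 20 by summed amino acids. The names themselves changed too. Of the 7 higher and the 7 lower, 0 and 1 remained with peptides of at least 200 amino acids, where the counts were 10 and 9, 0 and 1 by distinct accessions, 2 and 5 by summed amino acids, and 4 and 5 with 1 transcript per Trinity gene. For enzyme codes, 1 and 1, they were 0 and 2 at an e-value of 1e-10, with 1 transcript per Trinity gene and over transcripts with a code. They were 0 and 0 by distinct accessions, at 3-fold and with at least 40 transcripts, 0 higher with peptides of at least 200 amino acids, 14 and 3 at 1.5-fold, 7 and 4 with at least 10 transcripts, and 52 and 46 with no filter. For descriptions, 2 and 3, they were 0 and 1 by distinct accessions, 1 and 1 with peptides of at least 200 amino acids, 10 and 9 at 1.5-fold, 0 and 0 at 3-fold, 8 and 14 with at least 10 transcripts, 1 and 0 with at least 40, and 806 and 756 with no filter. With 1 transcript per Trinity gene 1 was lower, and over informative transcripts 1 was higher.

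Proteins matched only in leaf and only in stem were 32.6% and 38.2% at an e-value of 1e-05, 32.3% and 37.8% at 1e-10, 26.9% and 41.4% with peptides of at least 200 amino acids, and 25.2% and 25.1% by description. With 1 transcript per Trinity gene 35.3% were only in leaf. Median peptides in leaf and stem were 198 and 237 amino acids at 1e-05, 200 and 241 at 1e-10, 198 and 244 with 1 transcript per Trinity gene, and 178 and 209 over all translated transcripts. The cause of these shifts was not tested beyond the change of setting itself. The number of transcripts limited the precision, and several ratios past 2-fold, such as that of pectinesterase activity, had intervals that included 1.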
